A study of Mus musculus with 14 samples.

Results

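Chemokines, interleukins and interleukin receptors are the soluble signals, and the proteins that receive them, by which epidermis and immune cells influence each other. The 123 genes described here were chosen by name alone from the 54332 genes of the time course: the symbol begins with Ccl, Cxcl, Cx3cl, Xcl or Il followed by a digit, and does not end in -ps or os. One antisense gene was dropped by its ending, and 3 of the genes kept are annotated as pseudogenes. RNA was measured in 10 libraries of epidermal stem cells (EpdSCs) sorted from back skin of CD1 mice labelled as male and carrying K14rtTA and TRE-myc-Sox9, in which the keratin 14 promoter drives a doxycycline-dependent activator that switches on a MYC-tagged *Sox9* transgene. There were 2 biological replicates at each of 5 timepoints: D0 (mice at P21, before doxycycline), W1 (P28), W2 (P35), W6 (P63) and W12. The sort kept cells negative for CD31, CD45, CD117 and CD140a, high for CD49f, negative for CD34 and high for Ly6A, a gate meant to remove endothelial cells, leukocytes, melanocytes or mast cells, and fibroblasts. For W12, cells were sorted from skin of newborns that had been grafted to female Nude mice, which lack most T cells, and not from the animals' own back skin, so 12 weeks of SOX9 and grafting cannot be told apart. Age rose with time on doxycycline from D0 to W6, and no libraries of age-matched mice without the transgene were analysed here, so age and SOX9 cannot be told apart either.

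Chemokines are small secreted proteins, grouped into CC, CXC and CX3C families by the spacing of their first cysteines, that draw cells bearing matching receptors. Interleukins of the IL-1 family act through receptor pairs of the IL-1 receptor type and lead to NF-κB, whereas those of the IL-6, IL-10, IL-12 and common γ-chain families act through JAK kinases and STAT factors. Keratinocytes make many of them: CCL27 and CXCL14 are typical of resting epidermis, and IL-1α, IL-36γ, IL-6, IL-24 and the neutrophil-drawing CXCL1 are made by irritated or wounded epidermis.

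Values are in TPM, the share of a gene's transcripts in a library after correction for length, scaled to a fixed total of 1000000, so the depth behind them is unknown. Changes are differences between timepoint means of log2(TPM + 1), given with the standard error (SE) for 2 libraries per timepoint. They understate the change of genes at low TPM. A gene was called when limma's moderated test gave a Benjamini-Hochberg adjusted *P* under 0.05 over the 13110 genes whose mean over all libraries reached 1 TPM. Because whole sorted populations were sequenced, fewer cells that make a transcript and less of it per cell cannot be told apart.

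The transgene reading, MYC-SOX9, was 89.6 and 45.6 TPM at D0 and between 606 and 3414 TPM in all 8 later libraries. D0 replicate 2 went against its label: its *Xist*, a transcript of the inactive X of female cells, was 4.61 TPM, where D0 replicate 1 had 0.00103 TPM, and its *Ddx3y*, a Y-linked gene, was 0.0278 TPM, where D0 replicate 1 had 32.1 TPM. Counts of called genes, and the named calls against D0 that are lost or gained, are therefore also given without that library. The D0 group is then 1 library, assumed to vary like the other groups. The W12 libraries held *Xist* at 5.51 and 3.50 TPM beside *Ddx3y* at 11 and 12.9 TPM. In all earlier libraries but D0 replicate 2, *Ddx3y* was between 21.9 and 32.7 TPM. The grafts were carried by female mice, and the part of host cells in the W12 values was not tested. The 7 markers of basal keratinocytes summed to between 35134 and 59892 TPM in every library, but 6 of the 7 were lower at W6 and 5 at W12 (5 at each without D0 replicate 2), among them *Krt15*, from 11241 and 11928 TPM at D0 to 322 and 242 TPM at W12. *Ptprc*, the gene of the CD45 antigen, stayed at or below 0.327 TPM.

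Of the 123 genes, 63 reached a mean of 1 TPM over the 10 libraries and were tested. The other 60 comprised 10 that reached 1 TPM in at least 1 library and 50 that were below 1 TPM everywhere, 9 of them at 0 in all 10 libraries. Among those at 0 throughout were *Il3*, *Il17a*, *Il27* and *Il31*, cytokines made mainly by lymphocytes or myeloid cells. The 10 that reached 1 TPM in a library without passing the filter had highest values of 1.08 TPM (*Ccl6*), 3.46 TPM (*Cxcl11*), 1.61 TPM (*Il1b*), 3.07 TPM (*Il36a*), 1.29 TPM (*Il10*), 1.25 TPM (*Il17rd*), 2.16 TPM (*Il11*), 1.19 TPM (*Il12rb1*), 1.16 TPM (*Il27ra*) and 1.80 TPM (*Il4i1*). Summed over all 123 genes, TPM was 8074 and 9313 at D0, 12110 and 12902 at W1, 10056 and 7796 at W2, 1512 and 2813 at W6, and 2352 and 2201 at W12. The W6 and W12 libraries were all below the earlier ones. One gene, *Ccl27a*, made up 63.3% and 57.4% of this sum at D0, 82.3% and 82.1% at W1, 81.6% and 78.5% at W2, 28.3% and 53.3% at W6, and 21.1% and 14.7% at W12.

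**Figure D1:**
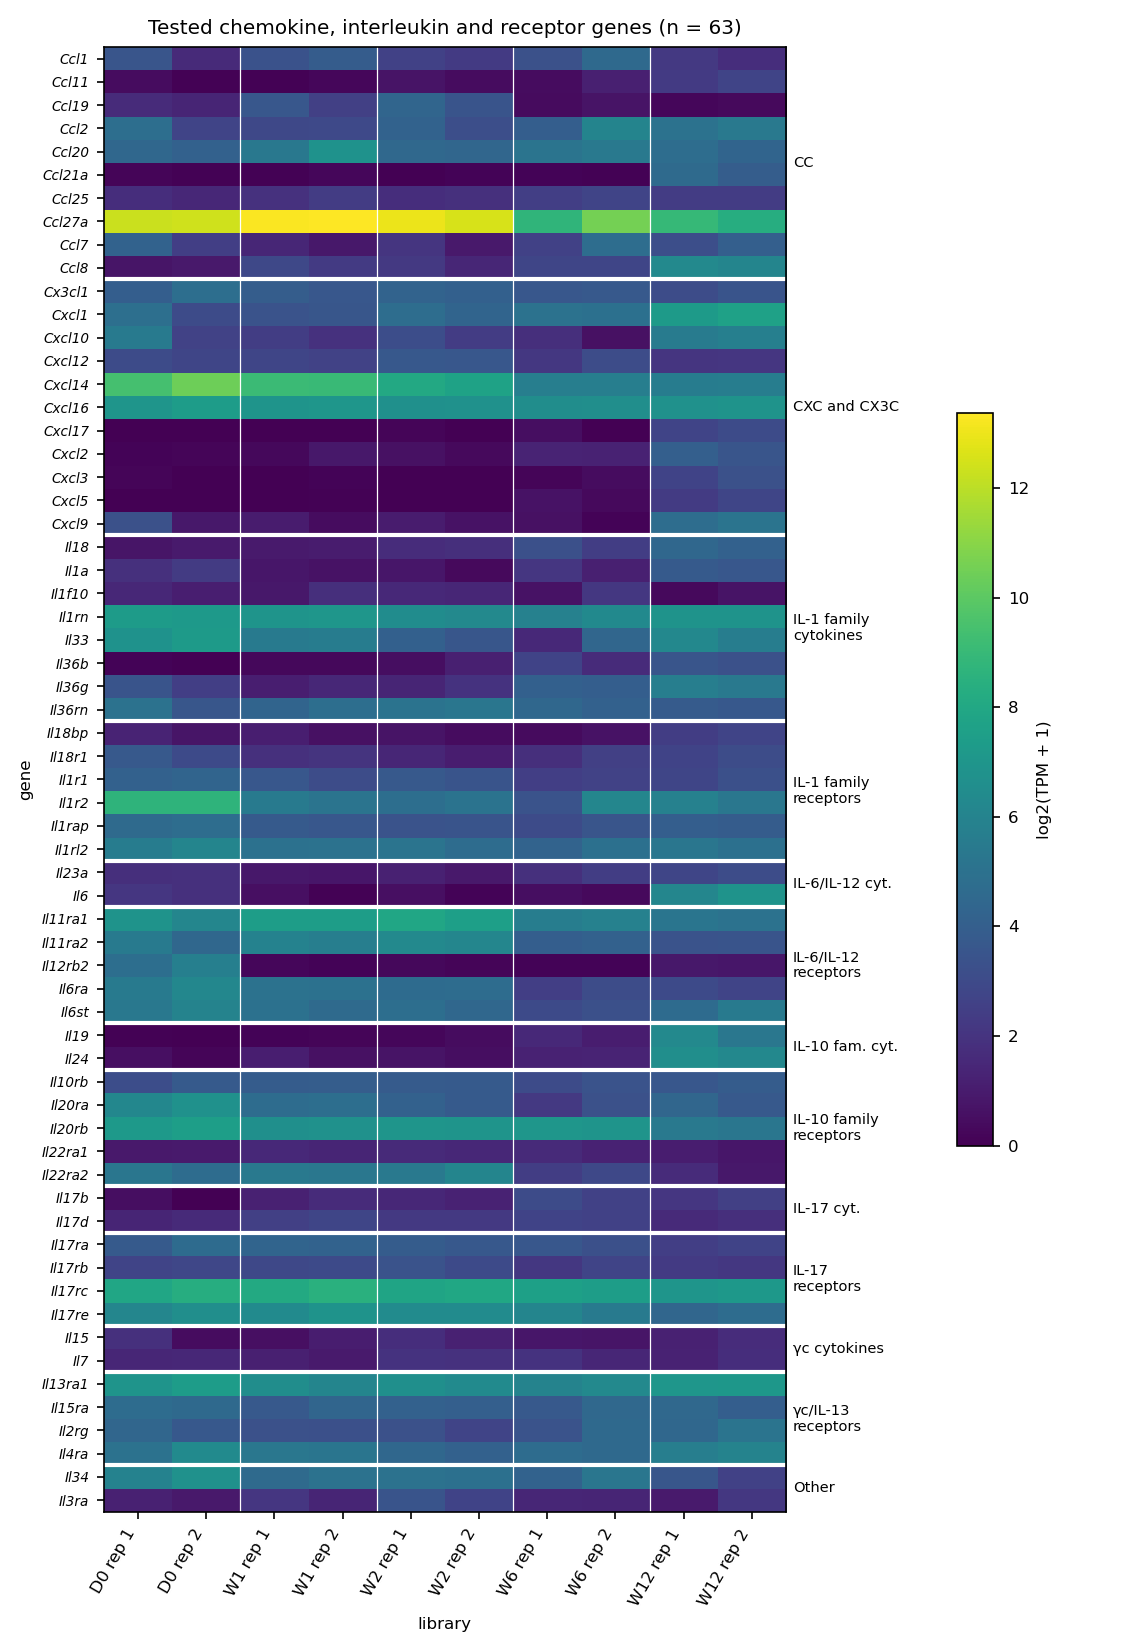
TPM of the 63 tested genes (rows, grouped by role) in each of the 10 libraries (columns), coloured by log2(TPM + 1). *Ccl27a* and *Cxcl14* are the brightest rows before W6, and *Il6*, *Il19*, *Il24*, *Ccl8* and *Cxcl1* brighten in both W12 libraries.

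Against D0, 17 of the 63 tested genes were called at W1, 6 higher and 11 lower. This was 9.52% higher and 17.5% lower, beside 5.79% and 4.10% of all genes tested and 9.89% called either way. At W2, 20 were called (6 higher, 14 lower), or 9.52% and 22.2% beside 9.06% and 6.64% of all genes, 15.7% of which were called either way. At W6, 32 were called (10 higher, 22 lower), or 15.9% and 34.9% beside 18.3% and 14.1% of all genes, 32.4% of which were called either way. At W12, 40 were called, 20 in each direction, or 31.7% and 31.7% beside 17.9% and 25.1% of all genes, 43.0% of which were called either way. The median change of the 63 genes was −0.19 at W1 beside 0.09 over all genes tested, −0.09 beside 0.06 at W2, −0.40 beside 0.08 at W6 and 0.00 beside −0.08 at W12. At W12, 10 of the 20 higher genes passed the filter only through their W12 values (*Ccl11*, *Ccl21a*, *Cxcl2*, *Cxcl3*, *Cxcl5*, *Cxcl17*, *Il6*, *Il18bp*, *Il19* and *Il24*) and so had to differ there. Apart from them, 10 of 53 were higher, a share near the 17.9% of all genes. Whichever single library was left out, 31 of the 40 genes stayed called at W12, 18 of the 32 at W6, 6 of the 20 at W2 and 1 of the 17, *Il12rb2*, at W1. The 31 include all 10 genes that had passed the filter only through W12. *Il12rb2* is among the genes that stayed at every timepoint, but it passed the filter only through its D0 values and so had to be lower later. The 6 at W2 were *Ccl19*, *Cxcl14*, *Il18r1*, *Il1rap*, *Il20ra* and *Il12rb2*, and each other W1 or W2 call named here was lost without at least 1 library.

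Without D0 replicate 2, 9 were called at W1 (2 higher, 7 lower), or 3.17% and 11.1% beside 4.45% and 3.41% of all genes. At W2, 14 were called (3 and 11), or 4.76% and 17.5% beside 6.35% and 4.51%. At W6, 23 were called (5 and 18), or 7.94% and 28.6%, where 1312 of all 13110 genes were called higher and 7.96% lower. At W12, 36 were called (20 and 16), or 31.7% and 25.4% beside 11.6% and 16.9%. Genes that had passed the filter only through W12 had to differ there in this fit too. Every one of the 17, 20, 32 and 40 changes kept its sign without D0 replicate 2. Of them, 11 at W1, 8 at W2, then 10 at W6 and 6 at W12 were no longer called, and 3, 2, 1 and 2 genes were called in their place. The 18 immediate-early genes, which respond to handling and stress within minutes, summed to 35582 and 58794 TPM at D0 and to between 6829 and 14744 TPM in the 8 later libraries, and 15 of the 18 were lower at W12, or 13 without D0 replicate 2. Their part in the falls from D0 was not tested.

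**Figure D2:**
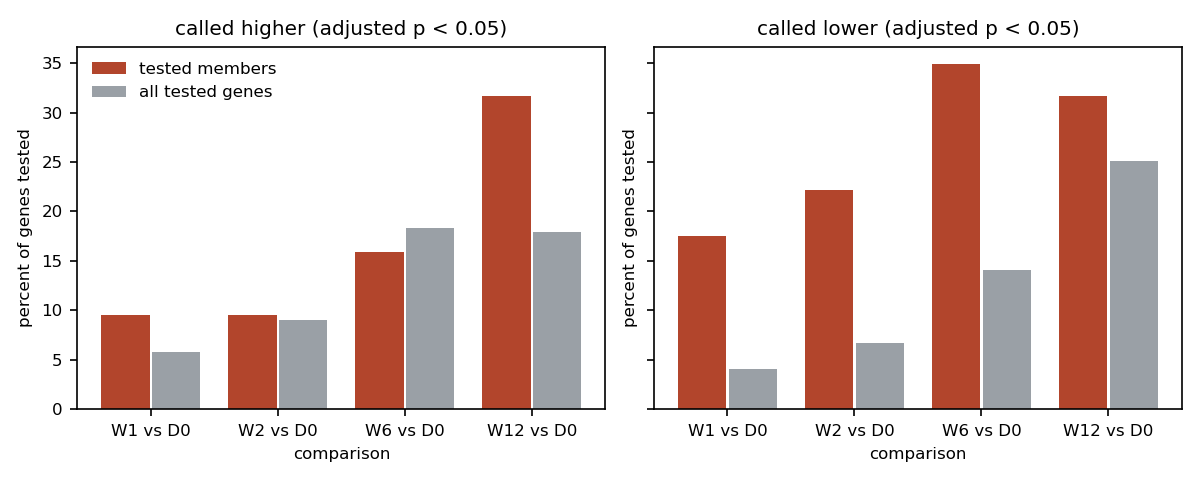
Percentage of the 63 tested chemokine, interleukin and receptor genes (red) and of all 13110 tested genes (grey) called higher (left) or lower (right) than D0 at each timepoint. The red bars exceed the grey ones on the lower side at all 4 timepoints, from 17.5% beside 4.10% at W1 to 31.7% beside 25.1% at W12.

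Split by what the proteins do, the 38 tested ligands had 5 called higher and 4 lower at W1, 3 and 6 at W2, 10 and 8 at W6, and 19 and 6 at W12. For the 25 receptors and binding proteins, 1 was higher and 7 lower at W1, 3 and 8 at W2, 0 and 14 at W6, and 1 and 14 at W12. Of the ligands, 13.2%, 7.89%, 26.3% and 50.0% were thus higher at W1, W2, W6 and W12, beside 5.79%, 9.06%, 18.3% and 17.9% of all genes, and 10.5%, 15.8%, 21.1% and 15.8% lower, beside 4.10%, 6.64%, 14.1% and 25.1%. Of the receptors, 56.0% were lower at W6 and again at W12. Of the 19 ligands higher at W12, 9 had passed the filter only through W12 and so had to differ there, with or without D0 replicate 2. Of the other 29 ligands, 10 were higher. Leaving out D0 replicate 2, the ligands had 2 higher and 5 lower at W1, 1 and 6 at W2, 5 and 7 at W6, and 18 and 4 at W12, and the receptors 0 and 2, 2 and 5, 0 and 11, and 2 and 12. With all libraries, the single receptor or binding protein gene higher at W12 was *Il18bp*, a soluble trap for IL-18. In all, 51 of the 63 (81.0%, beside 57.4% of all genes) were called at 1 or more timepoints and 8 (12.7%, beside 4.29%) at all 4. The receptor genes *Il1r2*, *Il1rap*, *Il20ra* and *Il12rb2* were lower at all 4, and *Il17b* was higher at all 4. Leaving out D0 replicate 2, 44 were called at 1 or more timepoints (69.8%, beside 39.5% of all genes) and 3 at all 4 (*Il6*, *Il12rb2* and *Cxcl9*), of which *Il12rb2* was lower throughout, and no gene was higher throughout.

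Among CC chemokines, 3 of the 10 tested were higher at W1, 1 was higher at W2, 2 were higher and 1 lower at W6, and 4 were higher and 2 lower at W12. With D0 replicate 2 left out, 1 was higher at W1 and at W2, 1 higher and 1 lower at W6, and 3 higher and 1 lower at W12. With so few genes in a family, counts of this kind are to be read beside the shares of all genes given above, and the W2 and W6 counts here lie near them. *Ccl27a*, whose product draws skin-homing T cells, was listed at 5108 and 5349 TPM at D0, 9965 and 10599 TPM at W1, 8208 and 6118 TPM at W2, 428 and 1500.1 TPM at W6 and 497 and 323 TPM at W12. Its levels were highest in both W1 libraries, and all 4 libraries of W6 and W12 lay below all 6 earlier ones. It fell at W6, with a log2 change of −2.70 ± 0.49 (SE, adjusted *P* = 0.00443), and at W12, with −3.70 ± 0.49 (SE, adjusted *P* = 0.000633), while the W1 change was 0.98 ± 0.49 (SE, adjusted *P* = 0.25). Over the libraries left out, the W6 change ran from −3.61 to −1.80. Exons of *Ccl27a* and *Il11ra1* overlap on opposite strands, and whether the libraries keep strand is not given in the sources used here, so reads of this stretch cannot be told apart.

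*Ccl19*, a ligand of CCR7 that guides dendritic cells and T cells, was listed at 2.09 and 1.63 TPM at D0, 11.5 and 4.77 TPM at W1, 19.3 and 10.1 TPM at W2, 0.295 and 0.649 TPM at W6 and 0.197 and 0.251 TPM at W12. Both W2 libraries exceeded both D0 libraries, and the 4 late libraries lay below them. It rose at W2 by 2.40 ± 0.40 (SE, adjusted *P* = 0.00516) and also at W1 by 1.58 ± 0.40 (SE, adjusted *P* = 0.0405), and was lower at W12 with a change of −1.22 ± 0.40 (SE, adjusted *P* = 0.0357). Without D0 replicate 2 the W2 rise was still called, whereas at W1 and W12 the adjusted *P* became 0.135 and 0.0899. *Ccl20*, which draws CCR6-bearing Langerhans cells and IL-17-making T cells, stood at 21.2 and 16.8 TPM at D0, 39.3 and 113 TPM at W1, 22.3 and 20.6 TPM at W2, 34.8 and 41.9 TPM at W6 and 26.7 and 18.7 TPM at W12. The W1 libraries differed widely from each other and both were above D0. The W1 change was 1.77 ± 0.41 (SE, adjusted *P* = 0.0296), a call lost without D0 replicate 2. Over the libraries left out, this change ran from 1.02 to 2.52.

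*Ccl8*, a monocyte and T cell chemoattractant, was listed at 0.713 and 0.912 TPM at D0, 6.41 and 3.84 TPM at W1, 3.66 and 1.74 TPM at W2, 5.85 and 6.04 TPM at W6 and 78 and 66.5 TPM at W12. Every library after D0 was higher than both D0 libraries, and the W12 libraries stood far above the rest. It rose by 1.73 ± 0.29 (SE, adjusted *P* = 0.00792) at W1, 1.94 ± 0.29 (SE, adjusted *P* = 0.00195) at W6 and 5.33 ± 0.29 (SE, adjusted *P* = 8.98e-06) at W12, and was 0.98 ± 0.29 (SE, adjusted *P* = 0.0541) at W2. *Ccl21a*, a CCR7 ligand best known from lymphatic endothelium, was listed at 0.148 and 0.0604 TPM at D0, 0.0616 and 0.176 TPM at W1, 0 and 0.102 TPM at W2, 0.0759 and 0.0634 TPM at W6 and 23.7 and 14.1 TPM at W12. Both W12 libraries were far above the other 8, a change of 4.13 ± 0.27 (SE, adjusted *P* = 2.16e-05). The annotation holds near-identical copies of this gene (*Ccl21b*, *Ccl21d*), between which reads may be split. *Ccl11*, or eotaxin, which draws eosinophils, was listed at 0.344 and 0.0655 TPM at D0, 0.0648 and 0.197 TPM at W1, 0.633 and 0.381 TPM at W2, 0.342 and 1.29 TPM at W6 and 3.75 and 5.61 TPM at W12. Both W12 values exceeded all others, by 2.23 ± 0.32 (SE, adjusted *P* = 0.000924) against D0.

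Endothelial markers moved with these W12 rises. The 6 genes *Pecam1*, *Cdh5*, *Kdr*, *Tie1*, *Vwf* and *Emcn* summed to 0.370 and 0.387 TPM at D0, 0.156 and 0.435 TPM at W1, 0.538 and 0.338 TPM at W2, 0.976 and 1.93 TPM at W6 and 69.1 and 148 TPM at W12, and 4 of the 4 tested were higher at W12, although the sort was against CD31, the product of *Pecam1*. The 4 tested had passed the filter only through their W12 values and so had to differ there. Between the W12 replicates the sum of the 6 genes was 2.14 times as high in replicate 2 as in replicate 1. For the 20 genes higher at W12 the same ratio ran from 0.494 (*Il19*) to 1.67 (*Il6*) with a median of 1.14, and *Ccl21a* was lower in replicate 2. The part of endothelial cells in the W12 values was not tested.

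Markers of immune cells were also followed. Of 8 macrophage and monocyte markers, *Cd14* was 185 and 443 TPM at W12 against at most 5.29 TPM before. It was called higher at W6 and W12, and the W6 call was lost without D0 replicate 2. *Cd68*, the other tested marker, was highest at W12, 1.49 and 2.60 TPM against at most 1.40 TPM before, and was not called, while *Lyz2*, *Adgre1* and *Csf1r* never exceeded 0.956, 0.149 and 0.533 TPM. Of 7 neutrophil markers, *S100a8* and *S100a9*, which inflamed keratinocytes also express, carried a summed level of 1064 and 1080.0 TPM at W12 against 1.47 to 21.2 TPM from D0 to W2 and 155 and 84.2 TPM at W6, and both were higher at W6 and W12. *Retnlg* reached 1.80 and 0.772 TPM at W12 from at most 0.0711 TPM before, *Mpo* 0.861 and 0.137 TPM from at most 0.0378 TPM and *Csf3r* 0.0616 and 0.222 TPM, with *Ly6g* at or below 0.0630 TPM and *Ngp* at 0 throughout. The 8 dendritic and Langerhans cell markers, which *Epcam* dominated, summed to 715 and 837 TPM at W12 against 223 and 344 TPM at D0, and 5 of the 5 tested were higher (4 without D0 replicate 2). The 4 genes of MHC class II presentation among them rose together at W12, *Cd74* from 26.4 and 14.8 TPM at D0 to 102 and 124 TPM, *H2-Aa* from 5.44 and 4.61 TPM to 45.1 and 37.5 TPM, *H2-Ab1* from 14.4 and 10.7 TPM to 84.4 and 90.2 TPM and *H2-Eb1* from 3.29 and 0.598 TPM to 45.2 and 40.1 TPM, while *Cd207* stayed at or below 0.814 TPM. The 7 general leukocyte markers summed to 4.29 and 3.59 TPM at D0 and 5.60 and 5.68 TPM at W12. Of the 3 tested, 1 was called higher at W12, a call lost without D0 replicate 2. Fibroblast markers summed to 1.74 and 4.09 TPM at D0 and 13.7 and 28.1 TPM at W12, with their highest sum, 52.2 TPM, in W6 replicate 2, and *Dcn* alone held 13.2 and 27.2 TPM of the W12 sums and 51.2 TPM of that one. Melanocyte markers summed to 1.23 and 4.69 TPM at D0 and 12.3 and 9.34 TPM at W12, where 2 of the 3 tested were higher, and mast cell markers stayed at or below 1.91 TPM. The part of these cells in the W12 rises was not tested.

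**Figure D3:**
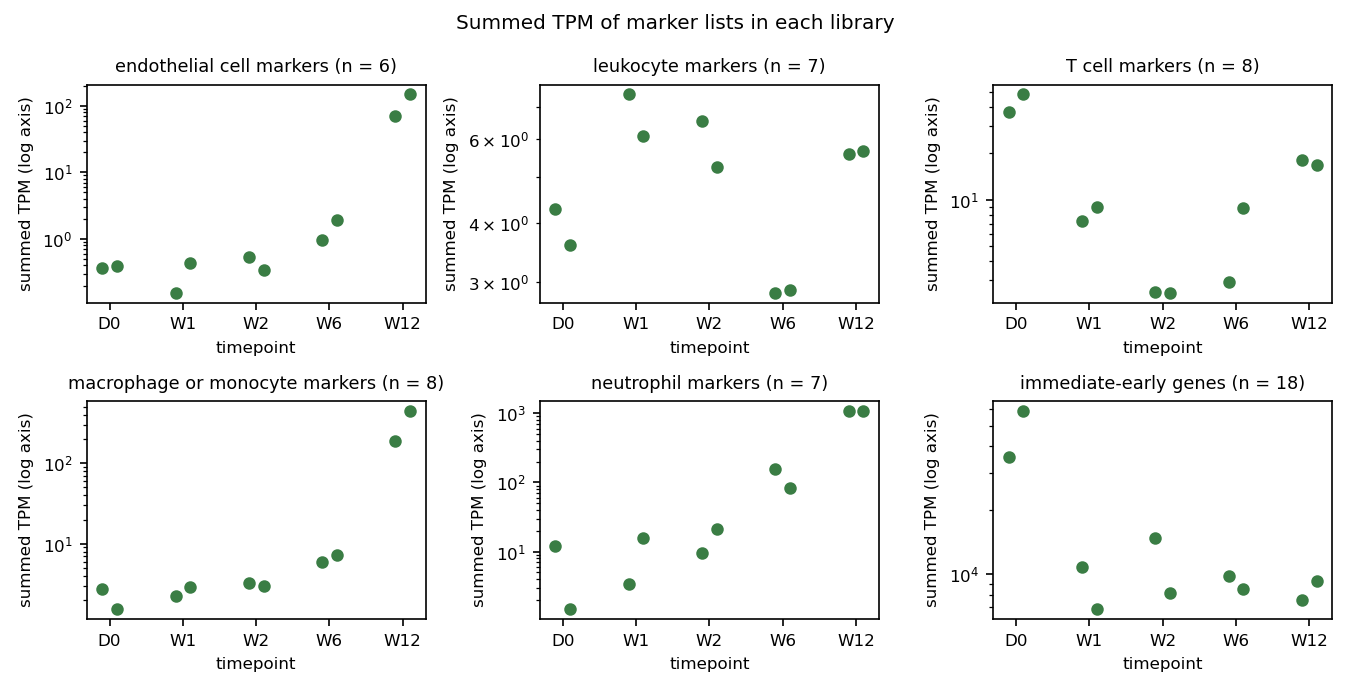
Summed TPM (log axis) of marker genes of 5 other cell types and of immediate-early genes in each library (points), with n the genes in each list. Endothelial markers stand at 69.1 and 148 TPM at W12 against at most 1.93 TPM before, whereas leukocyte markers stay between 2.85 and 7.46 TPM.

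*Ccl25*, a CCR9 ligand, ranged from 1.84 to 5.64 TPM and was called higher at W6 and W12 by 0.97 and 0.74, neither of which was called without D0 replicate 2. Not called at any timepoint were *Ccl1* (2.06 to 22.9 TPM), *Ccl2* (5.59 to 64.7 TPM) and *Ccl7* (0.816 to 26.3 TPM), whose D0 libraries differed from each other by several times.

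The 11 tested chemokines of the CXC and CX3C families had no call at W1, 1 lower at W2, 1 higher and 3 lower at W6, and 6 higher and 3 lower at W12. With D0 replicate 2 left out, 3 were lower at each of W1, W2 and W6, and 6 were higher and 1 lower at W12. *Cxcl14*, a chemokine that normal epidermis makes constitutively, was listed at 677 and 1393 TPM at D0, 558 and 541 TPM at W1, 267 and 208 TPM at W2, 51.9 and 52.1 TPM at W6 and 47.6 and 49.2 TPM at W12. Levels were lower at each later timepoint up to W6, with no overlap between timepoints. It fell at W2 with a change of −2.04 ± 0.29 (SE, adjusted *P* = 0.00246), at W6 with a change of −4.20 ± 0.29 (SE, adjusted *P* = 7.04e-05) and at W12 with a change of −4.30 ± 0.29 (SE, adjusted *P* = 2.2e-05). Between W6 and W12 the change was −0.10 ± 0.29 (SE, adjusted *P* = 0.835). *Cxcl12*, the ligand of CXCR4, and the membrane-bound *Cx3cl1* were lower at W12, with a change of −0.83 and −1.15, and *Cxcl16* was lower at W6 (−0.58). None of these 3 calls held without D0 replicate 2.

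The neutrophil-drawing CXCR2 ligands *Cxcl1*, *Cxcl2*, *Cxcl3* and *Cxcl5*, neighbours on chromosome 5, were all higher at W12, although 3 of them, all but *Cxcl1*, had passed the filter only through W12 and so had to differ there. *Cxcl1* was listed at 29 and 7.40 TPM at D0, 9.66 and 10.8 TPM at W1, 26.4 and 19 TPM at W2, 31.4 and 29.8 TPM at W6 and 158 and 198 TPM at W12. Both W12 libraries stood above all others, by 3.49 ± 0.48 (SE, adjusted *P* = 0.000783) against D0, while the D0 libraries spanned a wide range. Against D0 replicate 1 alone the W1 change was −1.42 (adjusted *P* = 0.0131), with the spread taken from the other groups. *Cxcl2* was listed at 0.105 and 0.138 TPM at D0, 0.233 and 0.793 TPM at W1, 0.525 and 0.249 TPM at W2, 1.52 and 1.46 TPM at W6 and 15.7 and 10.5 TPM at W12. It was higher at W6 by 1.15 ± 0.28 (SE, adjusted *P* = 0.0141) and at W12 by 3.63 ± 0.28 (SE, adjusted *P* = 4.04e-05), and the W6 call was lost without D0 replicate 2 (adjusted *P* = 0.0564).

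*Cxcl3* was listed at 0.118 and 0.0199 TPM at D0, 0 and 0.0751 TPM at W1, 0 and 0 TPM at W2, 0.155 and 0.376 TPM at W6 and 5.43 and 8.80 TPM at W12, a W12 change of 2.89 ± 0.26 (SE, adjusted *P* = 9.44e-05). *Cxcl5* was listed at 0 and 0 TPM at D0, 0.0275 and 0.0482 TPM at W1, 0.0231 and 0 TPM at W2, 0.575 and 0.276 TPM at W6 and 4.03 and 5.99 TPM at W12 (adjusted *P* = 0.00013 at W12). Both W12 libraries of each gene exceeded all others. *Cxcl17*, a mucosal chemokine, was listed at 0 and 0 TPM at D0, 0 and 0 TPM at W1, 0.154 and 0 TPM at W2, 0.425 and 0 TPM at W6 and 5.70 and 7.36 TPM at W12 (adjusted *P* = 8.57e-05 at W12). No fold is given for the last 2 genes because D0 was at 0.

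The interferon-induced CXCR3 ligands *Cxcl9* and *Cxcl10* differed from this group in their D0 values. *Cxcl9* was listed at 8.79 and 0.799 TPM at D0, 1.03 and 0.353 TPM at W1, 1.00 and 0.545 TPM at W2, 0.496 and 0.106 TPM at W6 and 26.3 and 34.9 TPM at W12. D0 replicate 1 stood above all later libraries up to W6, and both W12 libraries above all others. The W12 change was 2.90 ± 0.65 (SE, adjusted *P* = 0.00788), and 1.68 without D0 replicate 2 (adjusted *P* = 0.0137), and the call was lost without W12 replicate 2, with a change of 1.68 to 4.12 over the libraries left out. *Cxcl10* was listed at 42.2 and 5.30 TPM at D0, 4.40 and 2.79 TPM at W1, 7.87 and 4.20 TPM at W2, 2.54 and 0.536 TPM at W6 and 45.6 and 53.3 TPM at W12. It was lower at W6 with a change of −2.82 (SE 0.78, adjusted *P* = 0.0245), and its W12 level, near that of D0 replicate 1, differed from D0 by 1.61 ± 0.78 (SE, adjusted *P* = 0.125), or 0.22 without D0 replicate 2, and from W6 by 4.43 ± 0.78 (SE, adjusted *P* = 0.00683), a call lost without W12 replicate 1. Without D0 replicate 2, *Cxcl9* and *Cxcl10* were called lower at both W1 and W2, and *Cxcl9* also at W6 with a change of −2.93. The W6 change of *Cxcl10* ran from −4.21 to −1.43 over the libraries left out in turn and its call was lost without D0 replicate 1 or W6 replicate 2, so what is said of them before W12 turns on which D0 library is the reference.

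**Figure D4:**
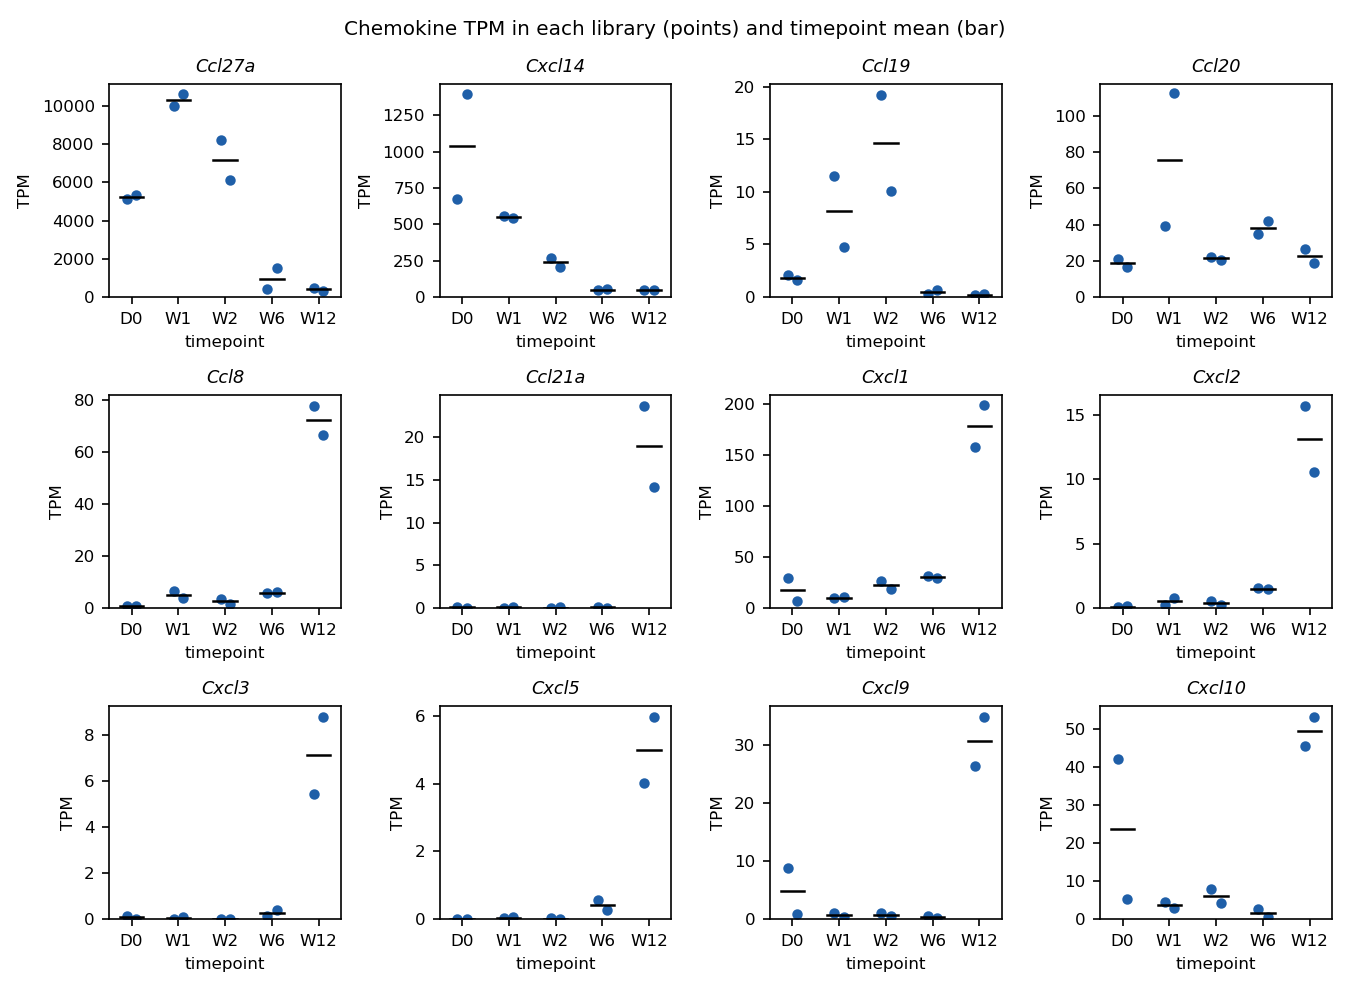
TPM of 12 chemokine genes in each library (points) with the timepoint mean (bar), each panel on its own linear axis. *Ccl27a* peaks at W1 and *Ccl19* at W2, *Cxcl14* declines to 47.6 and 49.2 TPM at W12, and *Ccl8*, *Ccl21a* and the CXCR2 ligands stand apart at W12.

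Because the W12 rises came together, the promoters of these genes are shown. RefSeq promoters (GRCm38.p6, 250 bases before to 50 bases after the annotated start) were at hand for 89 of the 123 genes and for 12 of the 20 higher at W12. They were searched on both strands for GGGAANNNCC, a κB-like motif of the kind that NF-κB binds, and for the AP-1 motif TGANTCA. No match of one overlapped a match of the other in these genes. The κB-like motif was present in 5.78% of 32851 promoters of all genes, in 17 of the 106 promoters of the 89 genes (16.0%), in 6 of the 13 promoters of genes higher at W12 and in 3 of the 21 of genes lower at W12. The AP-1 motif was present in 7.81% of all promoters, in 18 of the 106, in 3 of the 13 and in 2 of the 21. Of the 6 higher genes with the κB-like motif, *Cxcl2*, *Cxcl3*, *Il19* and *Il6* had passed the filter only through W12. *Cxcl1*, *Cxcl2* and *Cxcl3* are neighbours with the same core, so their matches may not be independent. The 6 stretches that hold the κB-like motif among genes higher at W12 are given 5′ to 3′ on the gene's own strand, with the motif in capitals; where it reads GGGAATTTCCC, matches on both strands overlap.
Cxcl1, chr5:90891140-90891199, plus strand, 105 to 46 bases before the start: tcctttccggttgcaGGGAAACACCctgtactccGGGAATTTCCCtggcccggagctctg
Cxcl2, chr5:90903787-90903827, plus strand, 112 to 72 bases before the start: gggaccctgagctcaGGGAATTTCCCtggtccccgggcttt
Cxcl3, chr5:90786013-90786053, plus strand, 88 to 48 bases before the start: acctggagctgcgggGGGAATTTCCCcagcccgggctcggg
Cxcl9, chr5:92328185-92328224, minus strand, 145 to 106 bases before the start: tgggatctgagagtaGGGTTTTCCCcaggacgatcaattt
Il19, chr1:130940168-130940207, minus strand, 92 to 53 bases before the start: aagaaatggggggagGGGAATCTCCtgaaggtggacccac
Il6, chr5:30013056-30013095, plus strand, 58 to 19 bases before the start: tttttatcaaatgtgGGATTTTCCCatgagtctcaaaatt

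The 3 CXCR2 ligands share the same 11-letter core, and *Cxcl1* holds another match upstream of it. *Cxcl10*, not called at W12, also holds the κB-like motif, as do *Ccl19*, *Il12rb2* and *Il17rc*, which were lower at W12. A match is a description of these letters only.

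Calls among cytokines of the IL-1 family were lower at first and mostly higher later: of the 8 tested, 2 were lower at W1, 4 were lower at W2, 3 were higher and 2 lower at W6, and 4 were higher at W12. With D0 replicate 2 left out, 1 was lower at W1, 2 at W2, 2 were higher and 2 lower at W6, and 4 were higher and 1 lower at W12. *Il18*, stored as a precursor that caspase-1 cleaves, was listed at 0.714 and 0.978 TPM at D0, 0.988 and 1.03 TPM at W1, 2.24 and 2.52 TPM at W2, 8.64 and 4.47 TPM at W6 and 20.8 and 17.1 TPM at W12. Each of W2, W6 and W12 lay above the timepoint before it without overlap. It rose by 1.98 ± 0.28 (SE, adjusted *P* = 0.00137) at W6 and 3.43 ± 0.28 (SE, adjusted *P* = 5.51e-05) at W12, with 0.88 ± 0.28 (SE, adjusted *P* = 0.0655) at W2. *Il18bp*, which neutralises IL-18, was at 1.50 and 0.665 TPM at D0 and 4.39 and 5.62 TPM at W12 (1.55 ± 0.30 SE, adjusted *P* = 0.00396).

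*Il36g*, an IL-36 cytokine abundant in inflamed epidermis, was listed at 10.2 and 4.53 TPM at D0, 1.21 and 1.77 TPM at W1, 1.57 and 2.89 TPM at W2, 16.3 and 15.1 TPM at W6 and 51.2 and 40.6 TPM at W12. The W1 and W2 libraries lay below both D0 libraries and the W6 and W12 libraries above them. It was lower at W1 with a change of −1.67 ± 0.34 (SE, adjusted *P* = 0.018) and at W2 with a change of −1.32 ± 0.34 (SE, adjusted *P* = 0.0344), and higher at W6 by 1.08 ± 0.34 (SE, adjusted *P* = 0.0408) and at W12 by 2.56 ± 0.34 (SE, adjusted *P* = 0.000679). The W6 call was lost without D0 replicate 2 (adjusted *P* = 0.238). *Il36b*, its close relative, was listed at 0.0799 and 0 TPM at D0, 0.215 and 0.212 TPM at W1, 0.395 and 1.24 TPM at W2, 5.50 and 2.15 TPM at W6 and 10.5 and 8.79 TPM at W12, and was higher by 2.12 ± 0.36 (SE, adjusted *P* = 0.00335) at W6 and 3.35 ± 0.36 (SE, adjusted *P* = 0.000229) at W12. Its W6 and W12 libraries lay above all earlier ones.

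*Il1a*, which damaged keratinocytes release, was listed at 2.58 and 4.06 TPM at D0, 0.732 and 0.581 TPM at W1, 0.770 and 0.286 TPM at W2, 3.40 and 1.28 TPM at W6 and 12.7 and 11.4 TPM at W12. The W1 and W2 libraries lay below D0 and the W12 libraries above it. It was lower at W1 (−1.36, adjusted *P* = 0.0382) and W2 (−1.50, adjusted *P* = 0.02) and higher at W12 (1.62 ± 0.34 SE, adjusted *P* = 0.00568). The early calls were lost without D0 replicate 2. *Il1b*, its secreted relative, was not tested and reached at most 1.61 TPM.

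*Il33*, a nuclear alarmin, had a different course and was listed at 113 and 154 TPM at D0, 45.2 and 48.4 TPM at W1, 16.2 and 10.9 TPM at W2, 1.95 and 20.5 TPM at W6 and 75.7 and 50.2 TPM at W12. It was lower in every later library than in either D0 library, lowest in W6 replicate 1, and the W6 libraries differed widely from each other. It fell at W2 with a change of −3.21 ± 0.73 (SE, adjusted *P* = 0.0207) and at W6 with a change of −4.06 ± 0.73 (SE, adjusted *P* = 0.00437), and at W12 stood −1.09 ± 0.73 (SE, adjusted *P* = 0.258) from D0 and 2.98 ± 0.73 (SE, adjusted *P* = 0.0238) from W6, a call lost without W12 replicate 1 or 2, with a change of 1.55 to 4.41 over the libraries left out. Without D0 replicate 2, the W2 call was lost (adjusted *P* = 0.0913) and the W6 call held (adjusted *P* = 0.0315), with a W6 change of −5.50 to −2.63 over the libraries left out. *Il1rn*, which encodes the IL-1 receptor antagonist and ranged from 58.7 to 163 TPM, was lower at W2 (−0.87) and W6 (−1.15). The antagonist gene *Il36rn* (11.1 to 37.5 TPM) and *Il1f10* (0.268 to 3.47 TPM) were not called with all libraries, but *Il36rn* was lower at W12 without D0 replicate 2 (−1.28, adjusted *P* = 0.00935).

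IL-1 family receptors were mostly lower: of the 6 tested, 3 were called lower at W1, 4 at W2, then 5 at W6 and 4 at W12, or 1, 3, 4 and 2 without D0 replicate 2. *Il1r2*, a decoy receptor that binds IL-1 without signalling, was listed at 410.3 and 419.8 TPM at D0, 43.9 and 34.8 TPM at W1, 28 and 33.4 TPM at W2, 9.55 and 68.7 TPM at W6 and 58.4 and 38.9 TPM at W12. Both D0 libraries stood several times above all 8 later ones. It fell at all 4 timepoints, with a change of −3.37 ± 0.69 (SE, adjusted *P* = 0.0171) at W1, −3.72 ± 0.69 (SE, adjusted *P* = 0.00851) at W2, −3.94 ± 0.69 (SE, adjusted *P* = 0.00371) at W6 and −3.09 ± 0.69 (SE, adjusted *P* = 0.00733) at W12. The W1 adjusted *P* was 0.0685 without D0 replicate 2, and the W12 call was lost without W12 replicate 2. The W6 change ran from −5.30 to −2.58 over the libraries left out.

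*Il18r1*, the ligand-binding chain of the IL-18 receptor, was listed at 12.4 and 7.01 TPM at D0, 2.58 and 3.06 TPM at W1, 1.69 and 1.14 TPM at W2, 2.48 and 4.78 TPM at W6 and 5.53 and 7.52 TPM at W12. The libraries of W1, W2 and W6 lay below both D0 libraries, while W12 overlapped D0. It was lower with a change of −1.44 ± 0.33 (SE, adjusted *P* = 0.0278) at W1, −2.11 ± 0.33 (SE, adjusted *P* = 0.004) at W2 and −1.21 ± 0.33 (SE, adjusted *P* = 0.0237) at W6, with −0.47 ± 0.33 (SE, adjusted *P* = 0.273) at W12. The W6 call was lost without D0 replicate 1 or W6 replicate 1. The signalling receptor *Il1r1* was lower at W6 (−1.65) and W12 (−1.21), its shared partner chain *Il1rap* at all 4 timepoints (−1.0, −1.27, −1.40 and −0.76 in order), and the IL-36 receptor *Il1rl2* at W2, W6 and W12 (−0.93, −1.25 and −0.75). All 3 *Il1rl2* calls, and those of *Il1rap* at W1 and W12, were lost without D0 replicate 2. At W12 *Il1a* and *Il36g* were higher while *Il1r1* was lower, and each of these calls held without that library.

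In the IL-6 and IL-12 families, both tested cytokines were higher at W12, and 4 of the 5 tested receptors were lower, the same counts as without D0 replicate 2. *Il6*, which signals through IL-6Rα and gp130, was listed at 3.40 and 2.64 TPM at D0, 0.447 and 0.0652 TPM at W1, 0.477 and 0.105 TPM at W2, 0.409 and 0.278 TPM at W6 and 70.6 and 118 TPM at W12. The 6 libraries of W1, W2 and W6 lay below both D0 libraries and the W12 libraries far above them. It was lower at W1 (−1.69 ± 0.30 SE, adjusted *P* = 0.0096), W2 (−1.65 ± 0.30 SE, adjusted *P* = 0.00813) and W6 (−1.58 ± 0.30 SE, adjusted *P* = 0.00554), and rose by 4.53 ± 0.30 (SE, adjusted *P* = 2.16e-05) at W12, without which it would not have passed the filter. *Il23a*, the specific subunit of IL-23, was at 2.49 and 2.56 TPM at D0, 0.819 and 0.741 TPM at W1 and 5.89 and 7.75 TPM at W12, and was lower at W1 (−0.99, adjusted *P* = 0.0478; not called without D0 replicate 2) and higher at W12 (1.14, adjusted *P* = 0.00841; not called without W12 replicate 2).

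*Il12rb2*, the signalling chain of the IL-12 receptor, was listed at 27 and 53.1 TPM at D0, 0.163 and 0.111 TPM at W1, 0.206 and 0.132 TPM at W2, 0.105 and 0.112 TPM at W6 and 0.824 and 0.749 TPM at W12. It passed the filter only through its D0 values, and all 8 later libraries were below 1 TPM. The change was −5.10 ± 0.30 (SE, adjusted *P* = 9.57e-05) at W1, −5.06 ± 0.30 (SE, adjusted *P* = 7.24e-05) at W2, −5.14 ± 0.30 (SE, adjusted *P* = 4.58e-05) at W6 and −4.45 ± 0.30 (SE, adjusted *P* = 2.24e-05) at W12. Without D0 replicate 2 they were −4.63, −4.58, −4.66 and −3.97, and all 4 stayed called. Beside it, the 8 T cell markers summed to 37.1 and 48.5 TPM at D0 and to between 2.49 and 18.1 TPM later. *Thy1* made up 35.7 and 47.5 TPM of the D0 sums, 6.17 and 7.67 TPM at W1, 0.350 and 0.821 TPM at W2, 1.67 and 5.88 TPM at W6 and 17 and 15.1 TPM at W12, while *Cd3e*, *Cd3g* and *Cd3d* never exceeded 0.422, 0.775 and 0.239 TPM. The part of T cells in the D0 level of *Il12rb2* was not tested. An exon of *Il12rb2* overlaps *Serbp1* on the opposite strand.

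*Il6ra*, the IL-6-binding chain, was listed at 44 and 70.7 TPM at D0, 31.4 and 30.7 TPM at W1, 24.9 and 25.4 TPM at W2, 4.66 and 7.74 TPM at W6 and 6.96 and 5.80 TPM at W12. The 4 libraries of W6 and W12 lay below all 6 earlier ones. It fell with a change of −3.01 ± 0.26 (SE, adjusted *P* = 0.000155) at W6 and −2.95 ± 0.26 (SE, adjusted *P* = 8.92e-05) at W12, and was also called at W2 (−1.12), a call lost without D0 replicate 2. *Il6st*, which encodes the shared signal chain gp130, was listed at 39.3 and 61.1 TPM at D0, 30.6 and 24.1 TPM at W1, 27.1 and 21.4 TPM at W2, 7.17 and 8.63 TPM at W6 and 24.6 and 44.3 TPM at W12. It fell with a change of −2.49 ± 0.31 (SE, adjusted *P* = 0.000719) at W6 and was −0.55 ± 0.31 (SE, adjusted *P* = 0.173) from D0 at W12, a rise of 1.94 ± 0.31 (SE, adjusted *P* = 0.00433) from W6.

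The IL-11 receptor genes were higher at W2 and lower at W12. *Il11ra1* was listed at 116 and 70 TPM at D0, 176 and 174 TPM at W1, 242 and 189 TPM at W2, 49.7 and 58 TPM at W6 and 35.6 and 32.1 TPM at W12. The W1 and W2 libraries lay above both D0 libraries, and those of W6 and W12 below. It was higher at W1 (0.95 ± 0.23 SE, adjusted *P* = 0.0363) and W2 (1.24 ± 0.23 SE, adjusted *P* = 0.0093) and lower at W6 (−0.74 ± 0.23 SE, adjusted *P* = 0.0398) and W12 (−1.39 ± 0.23 SE, adjusted *P* = 0.00201), and the W1 call was lost without D0 replicate 2 (adjusted *P* = 0.1). The neighbouring *Il11ra2* was higher at W2 (1.24) and lower at W6 (−0.87) and W12 (−1.51). These are near-identical copies, so the split of reads between them is uncertain, and *Il11ra1* overlaps *Ccl27a*. Both W6 calls were lost without D0 replicate 1 and without any 1 library of W1, W2, W6 or W12, with changes from −1.10 to −0.38 (*Il11ra1*) and −1.35 to −0.39 (*Il11ra2*) over the libraries left out.

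The IL-10 family had the largest rise among the 63 genes at W12 on the log2 scale, that of *Il24*, although this gene and *Il19* had passed the filter only through W12 and so had to differ there. *Il24* and *Il19*, which lie in the same cluster on chromosome 1, encode cytokines that share a receptor made of the *Il20ra* and *Il20rb* chains. *Il24* was listed at 0.442 and 0.148 TPM at D0, 1.18 and 0.533 TPM at W1, 0.647 and 0.404 TPM at W2, 1.43 and 1.54 TPM at W6 and 98.2 and 75.7 TPM at W12. Both W12 libraries were many times above all others, by 6.08 ± 0.25 (SE, adjusted *P* = 2.48e-06) against D0, and it was also called at W6 (0.95 ± 0.25 SE, adjusted *P* = 0.022). *Il19* was listed at 0.0730 and 0 TPM at D0, 0.107 and 0.155 TPM at W1, 0.181 and 0.348 TPM at W2, 1.96 and 1.11 TPM at W6 and 78.3 and 38.7 TPM at W12. It rose by 1.27 ± 0.33 (SE, adjusted *P* = 0.0197) at W6 and 5.76 ± 0.33 (SE, adjusted *P* = 1.15e-05) at W12, and W12 replicate 1 stood well above replicate 2. Neither W6 call held without D0 replicate 2 (adjusted *P* = 0.117 and 0.0882), while both W12 calls did.

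*Il20ra* was listed at 70.7 and 107 TPM at D0, 25.4 and 27.7 TPM at W1, 16.9 and 12.8 TPM at W2, 3.62 and 8.90 TPM at W6 and 20.4 and 12.2 TPM at W12. All later libraries lay below both D0 libraries, the lowest at W6. The change was −1.68 ± 0.38 (SE, adjusted *P* = 0.0265) at W1, −2.49 ± 0.38 (SE, adjusted *P* = 0.00364) at W2, −3.70 ± 0.38 (SE, adjusted *P* = 0.000338) at W6 and −2.39 ± 0.38 (SE, adjusted *P* = 0.00158) at W12. The W1 call was lost without D0 replicate 2 (adjusted *P* = 0.117). *Il20rb* was listed at 152 and 177 TPM at D0, 102 and 108 TPM at W1, 125 and 120.2 TPM at W2, 129 and 120.1 TPM at W6 and 41.1 and 36.6 TPM at W12. It was lower at W1 with a change of −0.64 ± 0.13 (SE, adjusted *P* = 0.0201), a call lost without D0 replicate 2, and at W12 with a change of −2.05 ± 0.13 (SE, adjusted *P* = 2.16e-05), where both libraries lay far below the other 8.

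*Il22ra2*, which encodes a soluble protein that traps IL-22, was listed at 37 and 25.2 TPM at D0, 40.8 and 38.6 TPM at W1, 41.6 and 67.6 TPM at W2, 4.35 and 6.36 TPM at W6 and 2.10 and 0.838 TPM at W12. The late libraries lay below all earlier ones. The change was −2.33 ± 0.33 (SE, adjusted *P* = 0.00142) at W6 and −3.72 ± 0.33 (SE, adjusted *P* = 8.48e-05) at W12. *Il10rb* (7.24 to 14.4 TPM) and the IL-22 receptor chain *Il22ra1* (0.781 to 2.04 TPM) were not called at any timepoint.

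**Figure D5:**
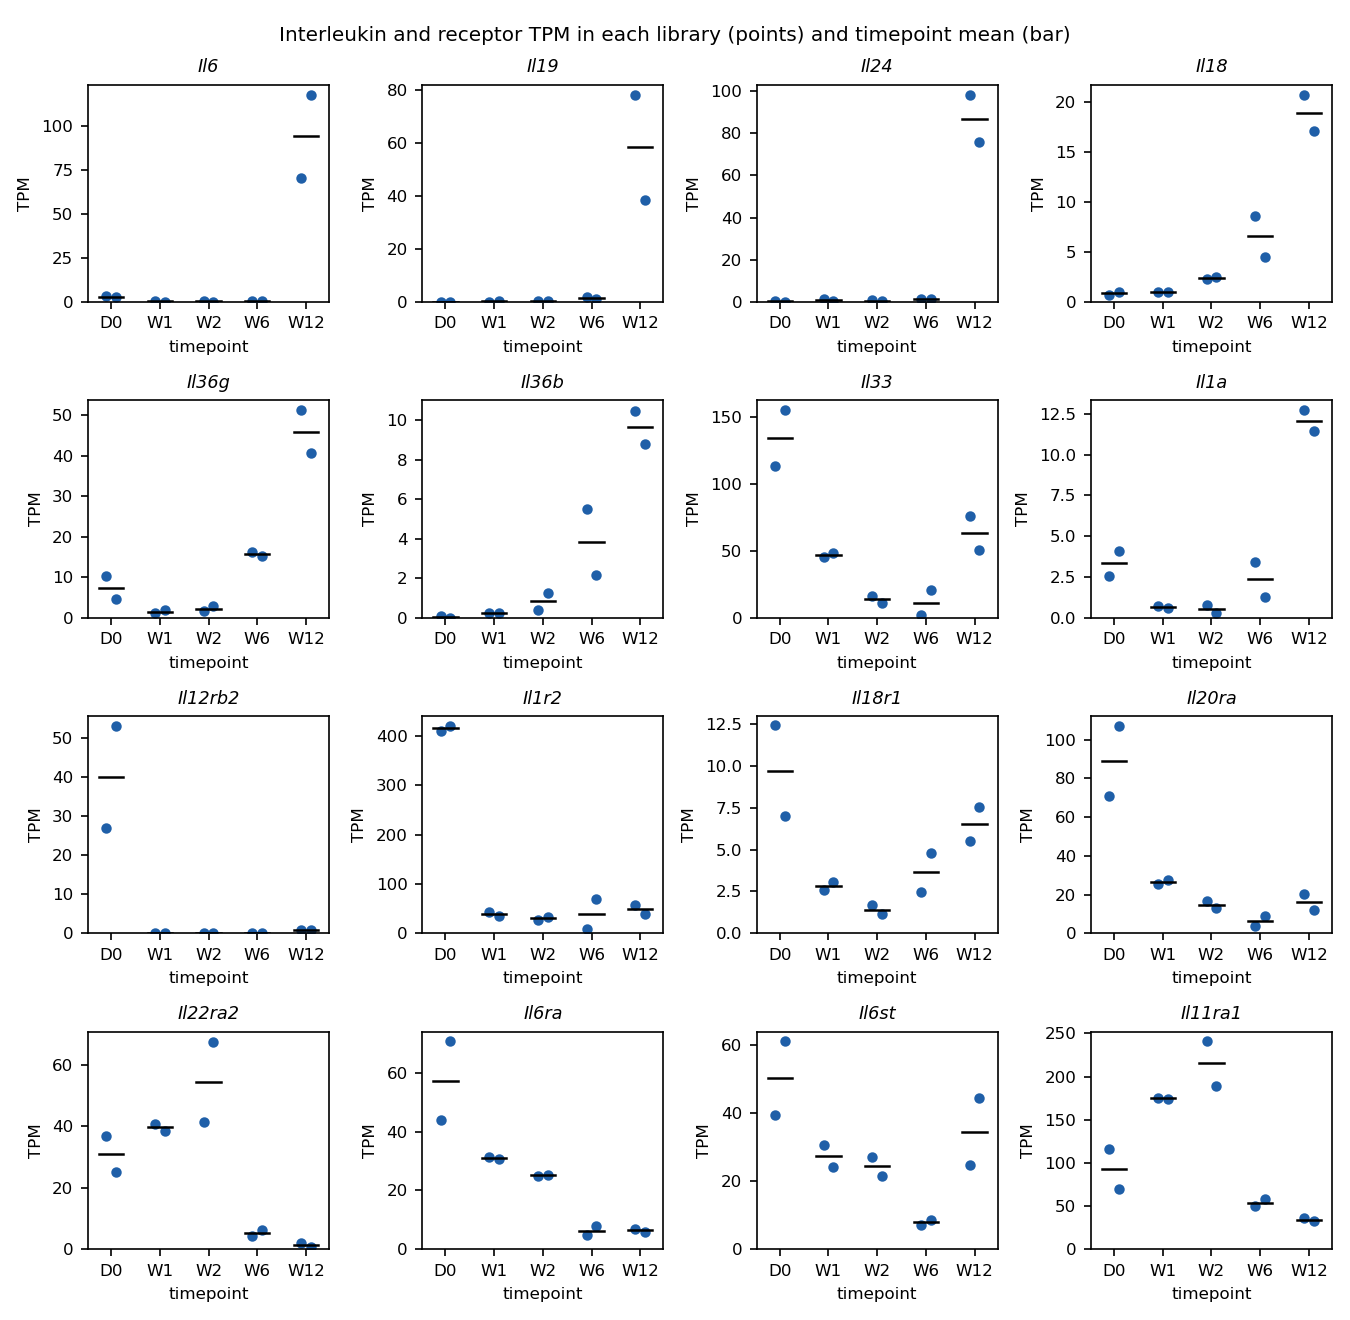
TPM of 16 interleukin and receptor genes in each library (points) with the timepoint mean (bar), each panel on its own linear axis. *Il6*, *Il19* and *Il24* are near the axis until W12, where *Il24* reaches 98.2 and 75.7 TPM, while *Il12rb2* and *Il1r2* are highest at D0.

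Both tested IL-17 family cytokines were higher at W1, W2 and W6, 1 of them also at W12, and 3 of the 4 tested receptors were lower at W12, which held without D0 replicate 2. *Il17b*, a cytokine found in several epithelia, was listed at 0.404 and 0 TPM at D0, 1.31 and 2.17 TPM at W1, 1.76 and 1.45 TPM at W2, 7.27 and 5.04 TPM at W6 and 3.37 and 4.85 TPM at W12. All later libraries were above both D0 libraries. It was higher at W1 (1.19 ± 0.29 SE, adjusted *P* = 0.0355), W2 (1.13 ± 0.29 SE, adjusted *P* = 0.0319), W6 (2.58 ± 0.29 SE, adjusted *P* = 0.000521) and W12 (2.09 ± 0.29 SE, adjusted *P* = 0.000811), the first 2 of these not called without D0 replicate 2. *Il17d* was higher at W1, W2 and W6 (1.16, 0.72 and 1.14) and 0.18 at W12, the W2 call being lost without that library. The receptor genes *Il17ra*, *Il17rc* and *Il17re*, the last of which serves the epithelial cytokine IL-17C, were lower at W12 with a change of −1.63, −1.08 and −1.81, and *Il17rc* also at W6 (−0.63), a call lost without D0 replicate 2. *Il17re* and *Il17rc* are neighbours on chromosome 6. *Il17rb* (3.46 to 9.62 TPM), the receptor of IL-17B, was not called.

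Receptors that use the common γ chain or bind IL-13 had few calls. *Il13ra1* ranged from 61.9 to 166 TPM and was called lower at W1 (−0.85) and W6 (−1.01), and *Il4ra* ranged from 16.6 to 84.8 TPM and was called lower at W2 (−1.41). All 3 calls were lost without D0 replicate 2, and the W12 change of *Il4ra* against the single D0 library left, the lower of the pair, was 0.84 (adjusted *P* = 0.0206), with the spread taken from the other groups. *Il15ra* (12.3 to 25.3 TPM), *Il2rg* (5.80 to 34.6 TPM) and the cytokine genes *Il7* (0.919 to 2.91 TPM) and *Il15* (0.358 to 2.58 TPM) were not called at any timepoint.

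*Il34*, a ligand of the CSF1 receptor on which Langerhans cells depend, was listed at 60.9 and 109 TPM at D0, 23.8 and 32 TPM at W1, 31.9 and 29.1 TPM at W2, 17.5 and 37.4 TPM at W6 and 10.8 and 4.91 TPM at W12. Its W12 libraries were the lowest. It was lower at W6 with a change of −1.63 ± 0.43 (SE, adjusted *P* = 0.0211), a call lost without D0 replicate 2, and at W12 with a change of −3.30 ± 0.43 (SE, adjusted *P* = 0.00061). *Il3ra*, the IL-3-binding chain, was higher at W2 alone (2.01 ± 0.44 SE, adjusted *P* = 0.0173), where its libraries held 10.2 and 5.41 TPM, and this call too was lost (adjusted *P* = 0.0812).

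Many of these genes are neighbours, and calls in some of their clusters are given here by position. Coordinates are from the GENCODE annotation of GRCm38, and genes were joined where gaps were at most 500 kb. The counts are to be read beside the shares of all genes given above. On chromosome 1, between 40074079 and 40551705, the 4 tested genes *Il1r2*, *Il1r1*, *Il1rl2* and *Il18r1* had 2 lower at W1, 3 at W2, then 4 at W6 and 3 at W12 (1, 2, 3 and 2 without D0 replicate 2), and none higher. On the same chromosome, from 130882074 to 131024974, *Il24* and *Il19* were both higher at W6 (neither without D0 replicate 2) and at W12, while *Il20* and *Il10* between and beside them were below the filter. On chromosome 5, between 90759360 and 90905938, all 4 tested CXCR2 ligands were higher at W12, 3 of which were tested only through their W12 values. On chromosome 4, between 41699989 and 42773993, 9 of the genes lie together, and of the 5 tested 3 were higher at W2 (*Il11ra1*, *Il11ra2* and *Ccl19*) and 4 were lower at W12 (3 without D0 replicate 2), when *Ccl21a* was higher. On chromosome 10, from 19621998 to 19760053, *Il22ra2* and *Il20ra* were both lower at W6 and W12. Neighbours did not always move together. On chromosome 2, *Il36b* and *Il36g* were higher at W6 while *Il1rn* was lower. On chromosome 11, *Ccl8* and *Ccl11* were higher at W12 while *Ccl1*, *Ccl2* and *Ccl7* were not called.

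Between consecutive timepoints, none of the 63 genes was called by limma from W1 to W2, with 10 at an unadjusted *P* under 0.05. Of all genes, 0.114% were called (0.0458% higher and 0.0686% lower). From W2 to W6, 17 were called (6 higher, 11 lower), or 27.0% beside 16.3% of all genes, and 9.52% higher and 17.5% lower beside 7.99% and 8.31%. Among them *Ccl27a* fell with a change of −3.14 ± 0.49 (SE, adjusted *P* = 0.00674), *Ccl19* with a change of −3.36 ± 0.40 (SE, adjusted *P* = 0.00266) and *Il22ra2* with a change of −3.11 ± 0.33 (SE, adjusted *P* = 0.00176), and *Il36g* rose by 2.40 ± 0.34 (SE, adjusted *P* = 0.00506). The calls of *Ccl27a* and *Il36g* were lost without W2 replicate 1, and 6 of the 17 stayed whichever single library was left out. From W6 to W12, 28 were called (23 higher, 5 lower), or 44.4% beside 20.2% of all genes: 36.5% were higher beside 6.66%, and 7.94% lower beside 13.5%. The median change over this step was 0.54 for the 63 genes and −0.16 for all genes. The largest was that of *Il6*, 6.10 ± 0.30 (SE, adjusted *P* = 8.76e-06). Of the 23, 10 had passed the filter only through W12, and 14 of the 28 stayed called whichever single library was left out. All of those 10 but *Ccl11* are among the 14.

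Genes of the same pathways without these symbols were also counted, to be read beside the shares of all genes higher (5.79%, 9.06%, 18.3% and 17.9% at W1, W2, W6 and W12) and lower (4.10%, 6.64%, 14.1% and 25.1%). Of 22 chemokine receptors, 5 were tested, of which 2 were lower at W1, 3 at W2, then 4 at W6 and 3 at W12, with 1 higher at W12, and the same counts were found without D0 replicate 2. The atypical receptor *Ackr4*, which removes CCL19 and CCL21, was listed at 123 and 144 TPM at D0, 107 and 85.1 TPM at W1, 103 and 98.2 TPM at W2, 10.8 and 7.38 TPM at W6 and 17.4 and 4.20 TPM at W12, a W12 change of −3.78 ± 0.48 (SE, adjusted *P* = 0.000523). *Ackr2*, a scavenger of inflammatory CC chemokines, was at 6.02 and 15.3 TPM at D0 and 0.576 and 0.362 TPM at W12 (−2.87 ± 0.37 SE, adjusted *P* = 0.000568). It had passed the filter only through its D0 values and so had to be lower later. *Ackr1*, typical of venular endothelium, was at or below 0.357 TPM until W6 and at 98.5 and 191 TPM at W12 (6.99 ± 0.33 SE, adjusted *P* = 3.71e-06), and like the endothelial markers was higher in W12 replicate 2. It had passed the filter only through W12 and so had to differ there.

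Of 15 tested partner cytokines and receptors, 2 were higher and 1 lower at W1, 2 and 2 at W2, 2 and 2 at W6, and 7 and 3 at W12. The counts without D0 replicate 2 were 2 and 1 at W1, 2 and 1 at W2, 2 and 2 at W6, and 4 and 3 at W12. *Csf3*, the neutrophil growth factor G-CSF, was listed at 0 in both D0 libraries and at 73.9 and 214 TPM at W12 (adjusted *P* = 1.31e-05). It had passed the filter only through W12 and so had to differ there. *Clcf1*, a cytokine of the IL-6 family, went from 0.515 and 0.519 TPM to 18.5 and 21 TPM (3.77 ± 0.38 SE, adjusted *P* = 0.000172). The IL-6 family gene *Ctf1* was lower at W12 with a change of −1.40 and the TNF receptor *Tnfrsf1a* with a change of −1.29.

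Of 18 tested JAK, STAT and SOCS genes, 1 was higher and 2 lower at W1, 1 and 2 at W2, 2 and 9 at W6, and 2 and 11 at W12. The counts without D0 replicate 2 were 1 and 1 at W1, 1 and 1 at W2, 2 and 4 at W6, and 2 and 6 at W12. With all libraries, 5.56% were higher at W1 and W2 and 11.1% at W6 and W12, and 11.1% were lower at W1 and W2, then 50.0% and 61.1%. The feedback inhibitors went opposite ways: *Socs2* rose from 1.00 and 1.88 TPM to 33.8 and 49.2 TPM (4.12 ± 0.29 SE, adjusted *P* = 2.84e-05) and *Socs5* by 1.48, whereas *Cish* went from 148 and 275 TPM to 26.3 and 28.6 TPM (−2.84 ± 0.39 SE, adjusted *P* = 0.000768) and *Socs3* changed by −1.65. Of 26 genes of IL-1 receptor, IL-17 receptor and NF-κB signalling, 3 were lower at W1, 6 lower and 1 higher at W2, 9 lower at W6 and 14 lower at W12 (53.8%). Leaving out D0 replicate 2, those lower numbered 2 at both W1 and W2, 7 at W6 and 9 at W12, and none was higher. *Tnfaip3*, an NF-κB target that limits the pathway, went from 119 and 230.1 TPM to 40.2 and 36.5 TPM (−2.08 ± 0.33 SE, adjusted *P* = 0.00158) and *Tollip* changed by −1.94, with no member of that list higher at W12. Of 7 tested inflammasome and IL-1 release genes, 1 was lower at W1, 1 higher and 2 lower at W2, 3 higher at W6 and 4 higher at W12. Leaving out D0 replicate 2, none was called at W1, and 1 was higher at W2, 2 at W6 and 3 at W12. *Casp1*, which activates IL-18, was listed at 3.22 and 8.27 TPM at D0, 1.58 and 2.64 TPM at W1, 3.93 and 3.23 TPM at W2, 24.5 and 54.8 TPM at W6 and 43.4 and 47.7 TPM at W12 and rose by 2.89 ± 0.43 (SE, adjusted *P* = 0.0012) at W12, and *Gsdmd*, the pore former, rose by 1.95.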

How the data were processed

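RNA-seq of 10 libraries of sorted EpdSCs (D0, W1, W2, W6 and W12, 2 each) was analysed. The authors trimmed reads, quantified transcripts with Salmon 1.4.0 against GENCODE transcripts of GRCm38 to which the transgene was added, and summed them to genes with Tximport 1.12.3. The deposited unit is TPM, which sums to 1000000 in each library and keeps no depth, so no counting error can be given. Every sample column was matched to a sample (0 left over). For the 4 hair placode libraries the authors deposited fold changes and p-values of their own comparison, which were not used. A kit for small amounts of RNA was used for the libraries.

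Genes whose mean over the 10 libraries was 1 TPM or more (13110 of 54332) were fitted on log2(TPM + 1), with a pseudocount of 1, by limma 3.58.1 in R 4.3.3. The fit had the 5 timepoint means, eBayes with a trend, and Benjamini-Hochberg adjustment over all genes tested, and a gene was called at an adjusted *P* under 0.05. TPM are not counts, so no count model was used. The *P* values measure the spread between 2 libraries per timepoint, pooled over timepoints, and a timepoint left with 1 library is assumed to vary like the others. Tables and figures were made with Python 3.11.15, pandas 2.3.3 and matplotlib 3.10.9.

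The genes, role groups and pathway and marker lists were chosen with earlier results of these data known. Of the 51 genes called against D0, the 30 with the largest change are described with all values and the others by range or change, except *Ccl20*, *Il1a* and *Il11ra1*, chosen for full values after these were seen. Of other pathway lists the 2 largest rises and falls at W12 are named. Positions are from GENCODE M21 and promoters from RefSeq, both on GRCm38. Same-numbered replicates are different mice and share only a number. The alternatives were a pseudocount of 0.1, all genes above 0 TPM, a mean of 5 TPM or more, scaling by median ratio or quantiles, no trend, only the 4 libraries of a comparison, an absolute log2 change of at least 1, a replicate block, and each library left out in turn. The crossed pairing was added after seeing the data.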

Additional observations from a re-analysis of the deposited data

Results flagged for a closer look

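For 7 of the genes the change from D0 at one timepoint was called in the opposite direction to that at another. They were chosen for that pattern, so the difference between the 2 changes had to be large and is given as a value with no test. Leaving out D0 replicate 2, one side was no longer called for *Ccl19*, *Il1a* and *Il23a*, and both sides stayed called for the other 4.

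*Ccl19* was higher at W2 (2.40) and lower at W12 (−1.22), a difference of −3.62. *Il11ra1* was higher at W2 (1.24) and lower at W12 (−1.39), a difference of −2.63. *Il11ra2* was higher at W2 (1.24) and lower at W12 (−1.51), a difference of −2.76. These 3 genes lie in the same cluster on chromosome 4.

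The other 4 genes, all cytokines, went the other way. *Il6*, which passed the filter only through W12, was lower at W1 (−1.69) and higher at W12 (4.53), a difference of 6.22. *Il36g* was lower at W1 (−1.67) and higher at W12 (2.56), a difference of 4.24. *Il1a* was lower at W2 (−1.50) and higher at W12 (1.62), a difference of 3.11. *Il23a* was lower at W1 (−0.99) and higher at W12 (1.14), a difference of 2.13.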

How the results depend on the processing

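No called change reversed under any alternative. Over the 7 comparisons, 111 of 136 alternative counts of called genes stayed within 1.5 times the value reported. With all genes above 0 TPM tested, the count was 3 at W1, 8 at W2 and 9 from W2 to W6. With a fit to just the 4 libraries compared it was 5 at W1, 10 at W2, 16 at W6 and 9 from W2 to W6. Leaving out each library in turn gave 3 to 21 at W1, 8 to 26 at W2, 23 to 35 at W6, 32 to 43 at W12, 0 to 1 between W1 and W2, 6 to 20 from W2 to W6 and 17 to 33 from W6 to W12. The W1 count was 9 without D0 replicate 2, 4 and 3 without W1 replicate 1 or 2, 10 without either W2 library and 9 without either W12 library. The W2 count was 8 and 10 without W2 replicate 1 or 2. The W2 to W6 count was 11 without either W1 library and 6 and 8 without W2 replicate 1 or 2, and the W6 to W12 count was 17 and 18 without W12 replicate 1 or 2. Between W1 and W2, 1 gene was called without D0 replicate 1, D0 replicate 2 or W6 replicate 2. Of the 40 calls at W12, 2 were lost without D0 replicate 1 (*Ccl19*, *Cxcl12*), 6 without D0 replicate 2 or W12 replicate 1 (*Ccl19*, *Ccl25*, *Cx3cl1*, *Cxcl12*, *Il1rap* and *Il1rl2* in both) and 8 without W12 replicate 2 (the same less *Cx3cl1*, with *Cxcl9*, *Il1r2* and *Il23a*, adjusted *P* up to 0.218). Losses at W1 reached 14 without W1 replicate 2, and at W2 12 without W2 replicate 1. The cause of these shifts was not tested.

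Of the 154 called changes over the comparisons, 60 were lost with just the 4 libraries compared, 57 with all genes above 0 TPM, 13 to 38 with 1 library left out, 9 with a pseudocount of 0.1, 0 of the 111 that could be recomputed with a mean of at least 5 TPM, 3 with median-ratio scaling, 11 with quantile normalization, 6 without trend and 22 with a log2 change of at least 1. Quantile normalization left 7 higher and 26 lower at W6 (21.2% of calls higher, beside 31.2%) and 4 and 16 at W2. Median-ratio scaling moved the median change of all genes from W6 to W12 from −0.16 to −0.02 and at W6 from 0.08 to −0.05.

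With the replicate block, 14 genes were called at W1, 15 at W2, 31 at W6, 38 at W12, 0 between W1 and W2, 13 from W2 to W6 and 26 from W6 to W12, and 17 of the 154 changes were lost. The numbers pair no mice: the deviations of same-numbered libraries correlated at −0.113, −0.0739, −0.129, 0.0934, 0.182, −0.0533 and −0.115 in these comparisons. Under the crossed pairing, 16 were called at W1, 33 at W6 and 30 from W6 to W12. With TPM no depth limit can be given, and 2 libraries per timepoint limit the precision.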
